A study of Rattus norvegicus with 40 samples.

Results

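The 5 transcripts described here, ENSRNOT00000025894.5, ENSRNOT00000077285.1, ENSRNOT00000025517.5, ENSRNOT00000008104.5 and ENSRNOT00000073025.2, are 5 of the 31715 transcripts quantified in each library of the series. They were chosen by their small p-values for the difference between genotypes in perirenal fat, so every value of that contrast is given below as the description of a choice, and the comparisons that carry a test are those made in the liver, soleus muscle and hippocampus. Libraries were made from rats of the strain SHR/OlaIpcv, the spontaneously hypertensive rat. One genotype was heterozygous for a zinc finger nuclease deletion that shifts the reading frame in the opening exon of Tti2 (SHR-Tti2+/-), and the other was the wild-type littermate (SHR/OlaIpcv-Tti2+/+). No treatment was named for either genotype, the deletion is present in every tissue of the animal, all heterozygous rats carry the same deletion allele, and the age of the rats at RNA isolation was not given in the sources used here. Of 12 rats, 6 per genotype, the 5 with the best RNA quality were sequenced per tissue and genotype, which gives 40 libraries in 4 tissues. The fat is peritoneal in the sample labels and perirenal in the methods.

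Tti2 is a partner of Telo2 and Tti1 in a co-chaperone complex that stabilises the phosphatidylinositol 3-kinase-related kinases, among them mTOR, a nutrient-sensing kinase, and ATM, a kinase of the DNA damage response. White fat such as the perirenal depot stores triglycerides and releases fatty acids and hormones, and it is one of the tissues on which insulin acts. The deposited tables identify transcripts by Ensembl transcript ID only. A RefSeq table of 47357 rat genes matched 0 of these IDs, so the genes behind the 5 transcripts are not named here, their functions cannot be stated, and Tti2 itself and markers of fat, liver, muscle and hippocampus could not be looked up.

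The libraries held between 19176393 and 32713126 estimated counts (median 24195968), and the 10 fat libraries between 22416531 and 26822062. Each library was compared with the mean of the others of its tissue by the correlation of log2 CPM (counts scaled to the size of the library). Wild-type rat 2 in the hippocampus stood apart (r = 0.951, beside 0.969 or more in the others). In the fat, wild-type rat 3 was the lowest (r = 0.965), close to the next library, heterozygous rat 2 (r = 0.968). RNA of the other sequenced tissues was followed in the fat as the summed abundance of transcripts at least 100 times higher in that tissue than in wild-type fat. The 445 liver transcripts summed to between 220 and 982 TPM (abundance per length, scaled to the library) in wild-type and to between 280 and 1584 TPM in heterozygous fat, the 255 muscle transcripts to between 104 and 196 and between 110 and 1194 TPM, and the 857 hippocampal transcripts to between 159 and 184 and between 186 and 217 TPM. The last pair of ranges did not overlap, with a difference in medians of 27.6 TPM, which is 0.0350% of the level of the same transcripts in the hippocampus. The lists were defined by low levels in wild-type fat only. That favours higher sums in heterozygous fat, so nothing is read from this separation. None of the 5 transcripts belonged to any of these lists (0 members), and the part of this RNA in the differences below was not tested. In whole tissue, fewer cells of a type and less RNA per cell cannot be told apart.

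The 5 transcripts had little in common beyond the choice. Their lengths were 2100 bases for ENSRNOT00000025894.5, 465 for ENSRNOT00000077285.1, 2322 for ENSRNOT00000025517.5, 4156 for ENSRNOT00000008104.5 and 3156 for ENSRNOT00000073025.2, against a median of 2078 bases over the 20221 transcripts tested in fat. Their mean level over the 10 fat libraries lay between 6.45 and 16.4 TPM, in the middle of the tested transcripts (median 7.44 TPM). kallisto divides reads that match several transcripts between them, which leaves counts that are not whole. The counts of ENSRNOT00000025894.5 and ENSRNOT00000025517.5 were whole within 0.01 in 40 of 40 libraries. Those of ENSRNOT00000008104.5 were whole in 31, those of ENSRNOT00000073025.2 in 18 and those of ENSRNOT00000077285.1 in 4. Libraries at a count of 0 were taken as whole in these numbers. Of the 10 fat libraries, 6 were whole for ENSRNOT00000008104.5, 2 for ENSRNOT00000073025.2 and 0 for ENSRNOT00000077285.1. The fat values of ENSRNOT00000073025.2 thus also included shared reads in most libraries. The abundance of ENSRNOT00000077285.1, also the shortest of the 5, therefore included in most libraries reads shared with other transcripts and is taken as the least certain of the 5. The share of such reads was not measured.

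In perirenal fat, 4 of the 5 transcripts were lower and 1 was higher in SHR-Tti2+/- than in wild-type rats. ENSRNOT00000025894.5 was at 13.9, 13.7, 10.8, 11.3 and 12.5 TPM in wild-type rats 1 to 5 and at 9.67, 9.46, 9.18, 9.11 and 8.66 TPM in heterozygous rats 1 to 5. Every heterozygous rat was below every wild-type rat, and the heterozygous rats lay close together (9.22 ± 0.385 TPM, SD, n = 5) beside a wider wild-type group (12.4 ± 1.4 TPM, SD, n = 5). The fitted fold was 1.37 in favour of the wild type (log2 fold change -0.45 ± 0.066 SE).

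ENSRNOT00000077285.1 was the one transcript with the opposite direction. Its level was 11.3, 7.27, 11.6, 9.47 and 10.9 TPM in the wild type (10.1 ± 1.78 TPM, SD, n = 5) and 24.2, 28.3, 21.2, 17.4 and 22.6 TPM in SHR-Tti2+/- (22.8 ± 4.0 TPM, SD, n = 5). The lowest heterozygous rat, rat 4, was 5.83 TPM above the highest wild-type rat. The fitted fold of 2.21 (log2 fold change 1.14 ± 0.181 SE) was the largest of the 5.

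ENSRNOT00000025517.5 was at 12.1, 17.2, 14.5, 15.7 and 13.1 TPM in wild-type fat (14.5 ± 2.03 TPM, SD, n = 5) and at 10.02, 8.81, 7.77, 10.4 and 10.03 TPM in heterozygous fat (9.41 ± 1.10 TPM, SD, n = 5). The groups were separate, with a gap of 1.66 TPM between wild-type rat 1 and heterozygous rat 4, and the fitted fold was 1.56 in favour of the wild type (log2 fold change -0.64 ± 0.115 SE). ENSRNOT00000073025.2 showed a similar separation, with 10.4, 8.16, 6.05, 6.83 and 8.30 TPM in the wild type (7.94 ± 1.65 TPM, SD, n = 5) and 5.29, 4.06, 5.44, 5.18 and 4.82 TPM in SHR-Tti2+/- (4.96 ± 0.552 TPM, SD, n = 5). Its gap was narrower, 0.606 TPM between wild-type rat 3 and heterozygous rat 3, and its fitted fold was 1.62 in favour of the wild type (log2 fold change -0.70 ± 0.133 SE).

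ENSRNOT00000008104.5 was the only one of the 5 whose genotypes overlapped in the fat. It was at 7.86, 8.52, 7.63, 6.04 and 7.57 TPM in the wild type (7.52 ± 0.913 TPM, SD, n = 5) and at 5.67, 5.63, 5.25, 5.35 and 6.41 TPM in SHR-Tti2+/- (5.66 ± 0.454 TPM, SD, n = 5). Of the heterozygous rats, 4 were below the lowest wild-type rat, and rat 5 was above wild-type rat 4. The fitted fold was 1.35 in favour of the wild type (log2 fold change -0.43 ± 0.079 SE).

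**Figure D1:**
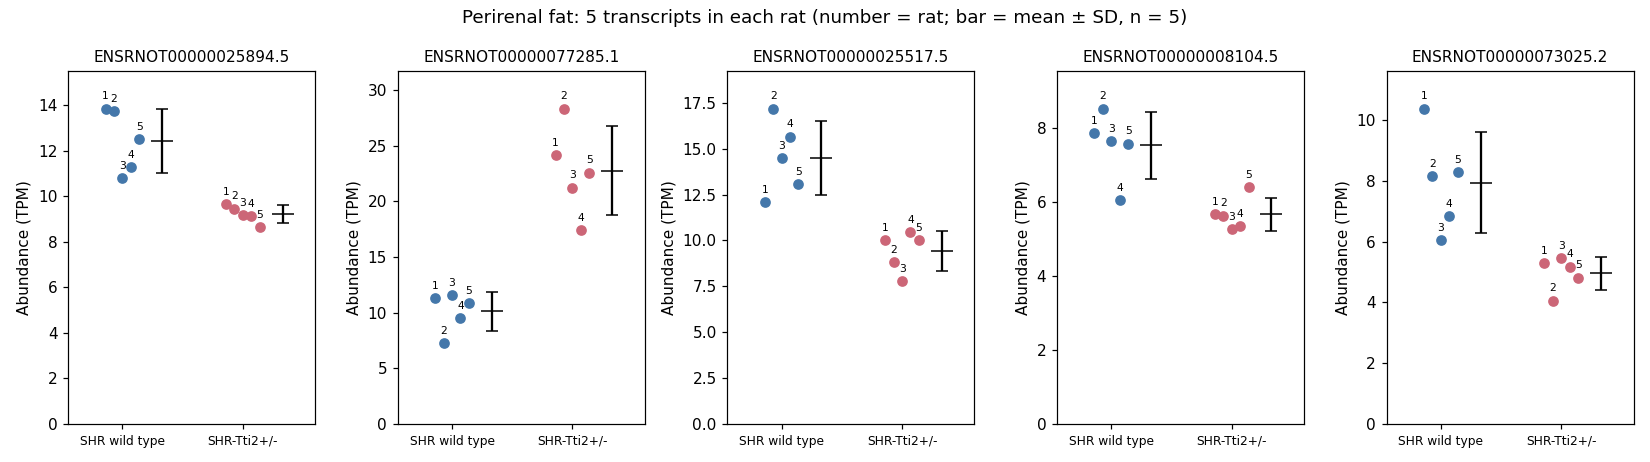
Abundance in TPM (y axis, starting at 0) of each of the 5 transcripts in perirenal fat of wild-type (blue) and SHR-Tti2+/- (red) rats; each point is a rat with its number, and the bar is the mean ± SD of 5 rats. The genotypes are separate for 4 transcripts, with ENSRNOT00000077285.1 higher in SHR-Tti2+/-, and overlap for ENSRNOT00000008104.5, where heterozygous rat 5 (6.41 TPM) lies above wild-type rat 4 (6.04 TPM).

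Among all 20221 transcripts tested in the fat, 0.598% had every heterozygous rat below every wild-type rat and 0.717% had every heterozygous rat above, on the scale of normalized CPM. On that scale 3 of the 5 were separate with SHR-Tti2+/- below and 1 with SHR-Tti2+/- above, which the choice favoured and from which nothing is read. By edgeR, 0 transcripts of the fat passed the threshold of an adjusted p under 0.1 with a fold of at least 1.5, that is 0% of those tested, although 1407 (6.96%) had an unadjusted p under 0.05, the 5 among them. DESeq2, with the same thresholds, called 20 transcripts (0.0989%), 3 of them among the 5. By the size of the p-value in edgeR the 5 stood at ranks 2, 3, 4, 7 and 12. Rank 1 was held by a transcript outside the 5, ENSRNOT00000032467.4, which was lower in SHR-Tti2+/- by a fold of 1.58. The transcripts just outside the choice, at ranks 5, 6 and 8 to 11, differed by folds of 1.16 to 1.32. Among the 12 smallest p-values the 5 thus had larger folds than all the others except ENSRNOT00000032467.4. This describes the choice, which was made in the same contrast, and nothing is read from it. The folds of the 5 were not the largest of the fat, since the size of their log2 fold change lay between the 88.1 and 98.2 percentiles of all tested transcripts.

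**Figure D2:**
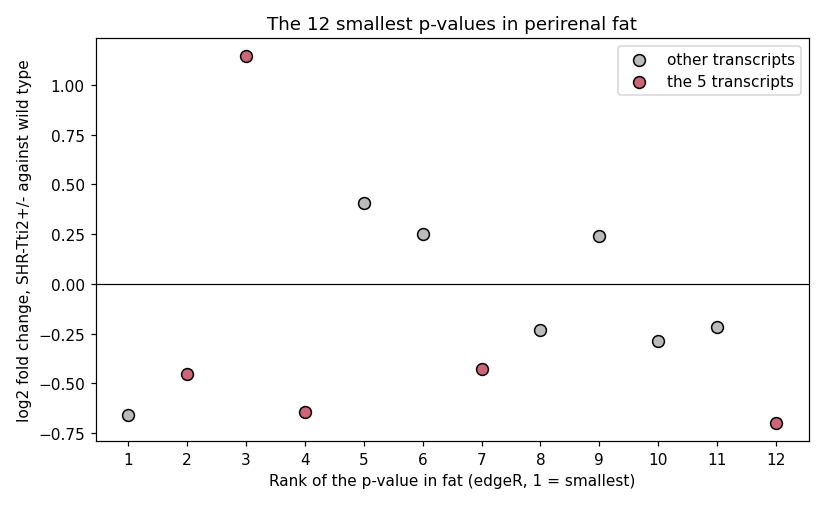
log2 fold change (y axis, SHR-Tti2+/- against wild type) of the 12 transcripts with the smallest p-values in perirenal fat, in order of p-value (x axis); red points are the 5 transcripts and grey points the others. Only ENSRNOT00000077285.1 (1.14) lies above 1, and the remaining members lie between -0.70 and -0.43.

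The fat values moved little when single libraries were left out. Without heterozygous rat 4, the library with the highest sum of muscle transcripts, the log2 fold changes were -0.45 for ENSRNOT00000025894.5, 1.23 for ENSRNOT00000077285.1, -0.68 for ENSRNOT00000025517.5, -0.41 for ENSRNOT00000008104.5 and -0.72 for ENSRNOT00000073025.2. Without heterozygous rat 5, the library with the highest sum of liver transcripts, they were -0.44, 1.14, -0.67, -0.48 and -0.69 in the same order. Without wild-type rat 3 they were -0.49, 1.20, -0.64, -0.42 and -0.78. Within each genotype, the levels of ENSRNOT00000025894.5 and ENSRNOT00000073025.2 varied together across the 10 fat libraries (r = 0.738 for log2 CPM centred on the genotype), while the other pairs had r between -0.48 and 0.13. These are descriptions of libraries that also chose the transcripts.

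The liver was the one tissue in which a member passed the edgeR test, as edgeR called 0 transcripts in the fat. ENSRNOT00000025894.5 was at 2.60, 3.38, 1.77, 2.29 and 3.19 TPM in wild-type livers of rats 1, 2, 4, 5 and 6 (2.65 ± 0.660 TPM, SD, n = 5). In the livers of heterozygous rats 1, 2, 4, 5 and 6 it was at 1.23, 1.29, 0.981, 1.36 and 0.894 TPM (1.15 ± 0.202 TPM, SD, n = 5). Every heterozygous liver was below every wild-type liver, which was so for 1.28% of the 18423 transcripts tested (and for another 1.28% in the opposite direction). The log2 fold change was -1.16 ± 0.189 SE (95% interval -1.58 to -0.74), a fold of 2.23 in favour of the wild type, with an adjusted p of 0.0504 in edgeR. It was the only one of the 4 members tested in the liver to be called, beside 38 calls among all transcripts (0.206%), of which 19 were lower in SHR-Tti2+/- (0.103%). The count over all transcripts depended on single libraries, with 19 calls without wild-type rat 2, 11 without wild-type rat 4, 57 without wild-type rat 6, 24 without heterozygous rat 2 or rat 4, 13 without heterozygous rat 5 and 18 without heterozygous rat 6. At an unadjusted p under 0.05, 1 of the 4 members passed beside 10.1% of all transcripts. DESeq2 also called 1 of the members (adjusted p = 2.5e-05) beside 0.646% of all transcripts. The edgeR call was close to its threshold: limma gave a log2 fold change of -1.13 with an adjusted p of 0.105, and leaving out wild-type rat 2 or heterozygous rat 4, 5 or 6 raised the edgeR adjusted p to 0.106, 0.112, 0.105 and 0.125. Of the rats behind these livers, 4 per genotype also gave fat, so that the fat and the liver were not independent sets of animals.

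The remaining members did not pass the test in the liver. ENSRNOT00000008104.5 was at 3.17 ± 0.233 TPM in the wild type and 2.92 ± 0.392 TPM in SHR-Tti2+/- (SD, n = 5 each), with a log2 fold change of -0.08 and a 95% interval of -0.27 to 0.10. ENSRNOT00000025517.5 was at 1.76 ± 0.271 and 1.91 ± 0.463 TPM, with a log2 fold change of 0.16 and a 95% interval of -0.21 to 0.52. Both intervals include 0.

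ENSRNOT00000077285.1 was scattered in the liver. It was at 15.4, 7.39, 14.7 and 7.80 TPM in wild-type rats 1, 2, 5 and 6 and at a rounded count of 0 in rat 4, where 3 counts, the limit that a count of 0 allows for counting error only, correspond to 0.126 CPM. The heterozygous livers were at 15.2, 3.54, 22.6, 3.30 and 14.6 TPM, so that the groups overlapped throughout. The log2 fold change of 0.45 had a 95% interval of -1.30 to 2.20. ENSRNOT00000073025.2 was at 0.0553 TPM in wild-type and 0.0231 TPM in heterozygous liver on average, from 23 and 9 counts summed over 5 libraries each, and was too low to be tested there.

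In the soleus muscle, no member passed the test. ENSRNOT00000025894.5 was at 5.56, 6.15, 5.93, 5.88 and 5.66 TPM in wild-type rats 2 to 6 and at 4.79, 5.97, 5.79, 5.39 and 6.31 TPM in heterozygous rats 2 to 6. The groups overlapped and the log2 fold change was -0.02 with a 95% interval of -0.20 to 0.17. ENSRNOT00000008104.5 was at 1.39 ± 0.229 and 1.33 ± 0.0991 TPM in the wild type and SHR-Tti2+/- (SD, n = 5 each), with a log2 fold change of -0.02 and a 95% interval of -0.27 to 0.23. For ENSRNOT00000073025.2, with 1.73 ± 0.743 and 1.56 ± 0.251 TPM, the log2 fold change was -0.10 and the 95% interval -0.62 to 0.43.

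ENSRNOT00000077285.1 was again scattered in the muscle, at a rounded count of 0 in wild-type rats 2 and 4 and at 15.95, 10.6 and 13.9 TPM in rats 3, 5 and 6, while the heterozygous muscles held 11, 4.12, 11.4, 8.08 and 5.82 TPM. Its log2 fold change of 0.06 had a 95% interval of -2.10 to 2.22. ENSRNOT00000025517.5 was close to absent, with 5 counts summed over the wild-type and 0 over the heterozygous muscles, where a count of 0 allows 0.116 to 0.125 CPM in each library, and it was not tested. Of the 4 members tested, 0 were called by edgeR (0.00552% of 18120 transcripts, a single call) and 0 by DESeq2 (0.221%), and 0 had an unadjusted p under 0.05 (6.84%). None had separate genotypes, which was so for 0.502% of all transcripts with SHR-Tti2+/- below and 0.800% with SHR-Tti2+/- above.

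In the hippocampus, all 5 members were tested and none was called. ENSRNOT00000025894.5 was at 26.2, 17.4, 23.4, 22.2 and 25.8 TPM in wild-type rats 1, 2, 3, 5 and 6 (23.0 ± 3.56 TPM, SD, n = 5) and at 17.4, 19.5, 17.9, 19.5 and 19.3 TPM in heterozygous rats 1 to 5 (18.7 ± 0.983 TPM, SD, n = 5). Wild-type rat 2, the library that stood apart, was the lowest of the 10, and the other 4 wild-type rats were above all heterozygous rats. The log2 fold change was -0.29 with a 95% interval of -0.51 to -0.08 and an adjusted p of 0.939 in edgeR, and -0.37 with an adjusted p of 0.670 without wild-type rat 2. It was the 1 member with an unadjusted p under 0.05, beside 4.22% of the 20712 transcripts tested.

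ENSRNOT00000008104.5 was at 8.85 ± 0.747 and 8.48 ± 0.240 TPM in wild-type and heterozygous hippocampus (SD, n = 5 each), with a log2 fold change of -0.06 and a 95% interval of -0.18 to 0.07. ENSRNOT00000077285.1 was at 43.4, 31.0, 17.2, 30.9 and 35.03 TPM in the wild type and at 32.1, 14.6, 20.2, 19.6 and 34.0 TPM in SHR-Tti2+/-. These groups overlapped, with a log2 fold change of -0.40 and a 95% interval of -1.04 to 0.24.

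ENSRNOT00000025517.5 and ENSRNOT00000073025.2 depended on wild-type rat 2 in the hippocampus. ENSRNOT00000025517.5 was at 2.35 TPM in that rat and at 1.25, 0.726, 0.650 and 0.878 TPM in the other wild-type rats, beside 0.721 to 1.01 TPM in SHR-Tti2+/-, and its log2 fold change of -0.42 (95% interval -1.23 to 0.39) became 0.04 without that rat. ENSRNOT00000073025.2 was at 2.33 TPM in that rat and at 3.66 to 4.37 TPM in the other wild-type rats, beside 3.58 to 4.08 TPM in SHR-Tti2+/-, and its log2 fold change of 0.14 (95% interval -0.17 to 0.45) became 0.03. Over the hippocampus, edgeR called 0 of the 5 beside 0.00483% of all transcripts, a single call, and DESeq2 0 of the 5 beside 0.0531%. None of the 5 had separate genotypes, beside 0.594% of all transcripts with SHR-Tti2+/- below and 0.589% with SHR-Tti2+/- above.

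**Figure D3:**
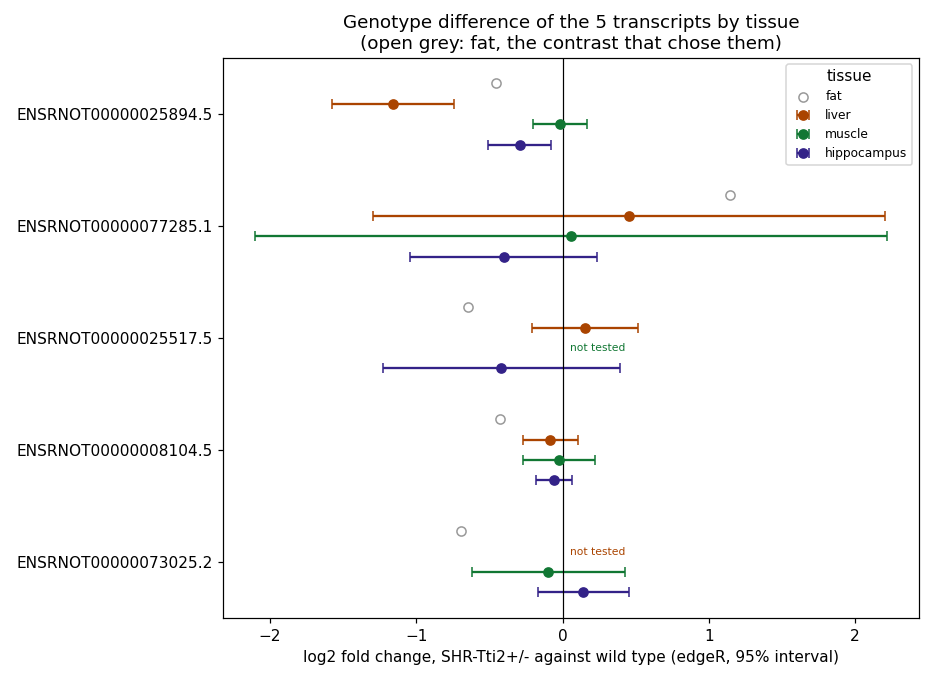
log2 fold change of the 5 transcripts (x axis, SHR-Tti2+/- against wild type) in each tissue, with 95% intervals from edgeR for the liver, muscle and hippocampus; open grey points are the fat, the contrast that chose the transcripts, drawn without an interval. Among the tested intervals, those of ENSRNOT00000025894.5 in liver (-1.58 to -0.74) and hippocampus (-0.51 to -0.08) lie below 0, and the others include 0. The intervals are not adjusted for the number of transcripts tested. Only the liver difference was called, and the hippocampus one was not (adjusted p = 0.939 in edgeR).

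The difference between genotypes was compared directly between the liver, muscle and hippocampus for the 3 members that passed the filter in all of them. For ENSRNOT00000025894.5 the log2 fold change was more negative in the liver than in the muscle (difference -1.13 ± 0.191 SE, 95% interval -1.53 to -0.74), with an adjusted p of 0.0132 in edgeR and rank 3 of 15787 transcripts by p-value. At an adjusted p under 0.1 this comparison called 0.380% of all transcripts. Against the hippocampus the difference was -0.85 ± 0.188 SE (95% interval -1.24 to -0.47), with an adjusted p of 0.0993 in edgeR, beside 0.133% of all transcripts called. That second call sat at the threshold and was kept in 8 of 30 fits that left out a library each, while the call against the muscle was kept in all 30 of them. Rats gave more than 1 tissue, and with the rat as a block the adjusted p was 0.0943 for the liver against the muscle and 0.359 for the liver against the hippocampus.

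Between the muscle and the hippocampus the genotype difference of ENSRNOT00000025894.5 differed by 0.28 (95% interval -0.086 to 0.65, adjusted p = 0.759 in edgeR), where 0.00633% of all transcripts were called. ENSRNOT00000008104.5 and ENSRNOT00000077285.1 passed in none of the pairs of tissues. For ENSRNOT00000008104.5 the intervals were narrow, from -0.29 to 0.20 for the liver against the muscle, whereas for ENSRNOT00000077285.1 they were wide, from -1.88 to 2.69 for the same pair. A comparison of the fat with another tissue was not tested, as the fat contrast chose the transcripts. The values side by side, in the order fat, liver, muscle and hippocampus, were -0.45, -1.16, -0.02 and -0.29 for ENSRNOT00000025894.5, 1.14, 0.45, 0.06 and -0.40 for ENSRNOT00000077285.1, and -0.43, -0.08, -0.02 and -0.06 for ENSRNOT00000008104.5.

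The 5 transcripts differed widely in where they were expressed. In wild-type rats, ENSRNOT00000025894.5 was highest in the hippocampus (23.0 ± 3.56 TPM), then the fat (12.4 ± 1.4), the muscle (5.84 ± 0.229) and the liver (2.65 ± 0.660; SD, n = 5 for each tissue), with no overlap between neighbours. The tissue with the called genotype difference was thus the one where this transcript was lowest. ENSRNOT00000008104.5 had its highest mean in the hippocampus (8.85 ± 0.747 TPM), followed by the fat (7.52 ± 0.913), the liver (3.17 ± 0.233) and the muscle (1.39 ± 0.229), and the hippocampus and the fat overlapped.

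ENSRNOT00000025517.5 and ENSRNOT00000073025.2 were highest in the fat. ENSRNOT00000025517.5 was at 14.5 ± 2.03 TPM in wild-type fat, which is 8.24 times its mean in the liver (1.76 ± 0.271) and 12.4 times its mean in the hippocampus (1.17 ± 0.700), and the last pair overlapped. In wild-type muscle it held 5 counts in all. ENSRNOT00000073025.2 was at 7.94 ± 1.65 TPM in wild-type fat, 3.57 ± 0.755 in the hippocampus, 1.73 ± 0.743 in the muscle and 0.0553 in the liver, and the muscle and the hippocampus overlapped. Over all transcripts, the median log2 ratio of TPM for the fat was 1.23 against the liver, 1.52 against the muscle and -0.32 against the hippocampus. Part of a higher TPM in the fat than in the liver or muscle is therefore a general shift. Among wild-type rats only, ENSRNOT00000077285.1 was highest in the hippocampus (31.5 ± 9.50 TPM), above all wild-type rats of the other tissues, and the fat (10.1 ± 1.78), the liver (9.04 ± 6.28) and the muscle (8.09 ± 7.63) overlapped.

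**Figure D4:**
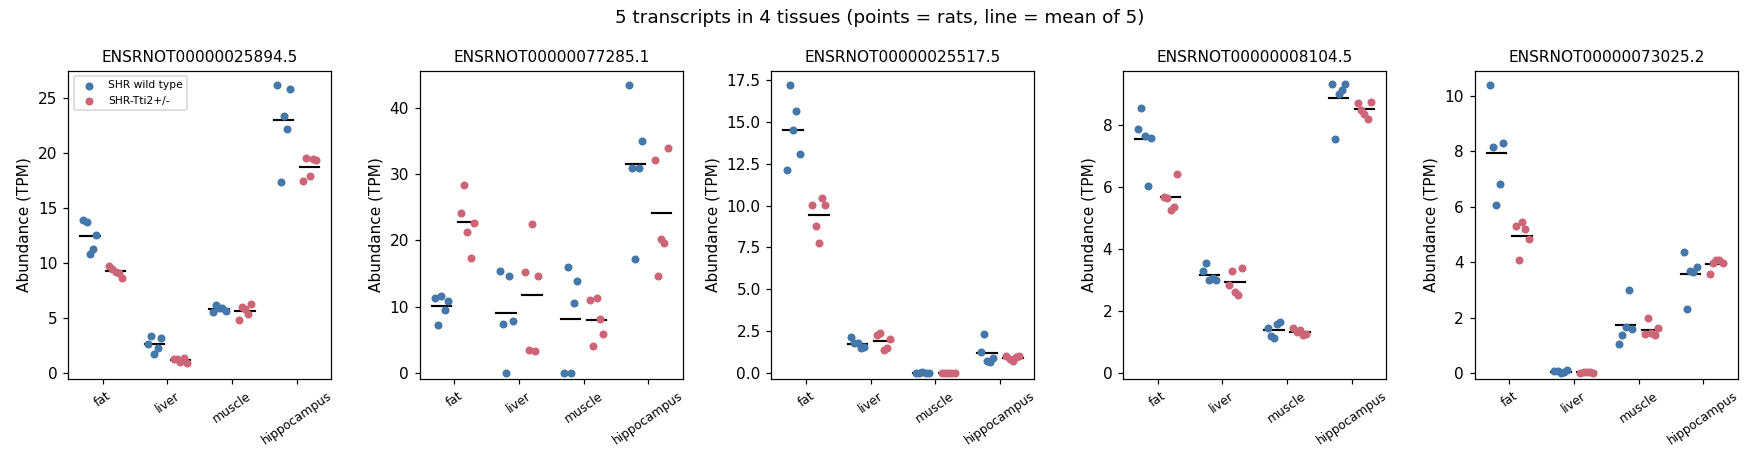
Abundance in TPM (y axis) of each of the 5 transcripts in the 4 tissues (x axis) in wild-type (blue) and SHR-Tti2+/- (red) rats; points are rats and lines are the means of 5 rats. ENSRNOT00000025517.5 and ENSRNOT00000073025.2 are highest in the fat, the other 3 have their highest means in the hippocampus, and ENSRNOT00000025894.5 has separate genotypes in the fat and the liver.

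Tissue levels in the 20 wild-type libraries were tested between the liver, muscle and hippocampus with edgeR. Counts were scaled by TMM, which assumes that most transcripts have equal levels between tissues. TPM and TMM differ strongly here: the median log2 ratio of TPM over all transcripts was -1.46 for the liver against the hippocampus, -1.63 for the muscle against the hippocampus and 0.09 for the liver against the muscle. Of the 15 comparisons, 10 passed an adjusted p under 0.1 with a fold of at least 1.5, in a setting where 63.3% (liver against muscle), 70.0% (liver against hippocampus) and 67.3% (muscle against hippocampus) of the 23478 transcripts tested did so. Such high shares put the assumption of TMM in doubt, and levels on this scale hold only under it. Rats gave more than 1 tissue, which this fit ignored. With the rat as a block, 10 comparisons also passed. ENSRNOT00000025894.5 was lower in the liver than in the muscle (log2 -1.37 ± 0.138 SE) and the hippocampus (log2 -1.62 ± 0.138 SE), beyond the general shift between tissues. ENSRNOT00000073025.2 was also lower in the liver than in the muscle (log2 -5.11 ± 0.385 SE) and the hippocampus (log2 -4.49 ± 0.381 SE).

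ENSRNOT00000025517.5 was higher in the liver than in the hippocampus by 1.98 ± 0.297 (log2 ± SE), and higher in both than in the muscle, where the fitted differences (log2 6.34 for the liver against the muscle and -4.36 for the muscle against the hippocampus) rest on 5 counts in the muscle. ENSRNOT00000008104.5 was lower in the muscle than in the liver (log2 0.95 for the liver against the muscle) and the hippocampus (log2 -0.95 for the muscle against the hippocampus). Its liver and hippocampus had nearly the same level on this scale (log2 0.00 ± 0.087 SE, adjusted p = 1), but the liver was lower in TPM (log2 -1.45, adjusted p = 3.1e-10 in limma on log2 of TPM + 0.1). The difference of ENSRNOT00000073025.2 between the muscle and the hippocampus also turned with the scale, from 0.62 (adjusted p = 0.0560 in edgeR) on TMM counts to -1.06 (adjusted p = 0.000509 in limma) on TPM. For ENSRNOT00000025894.5 the muscle and the hippocampus differed by -0.25 on TMM counts, which did not pass, and by -1.94 on TPM (adjusted p = 4.0e-10 in limma). ENSRNOT00000077285.1 passed in none of the 3 pairs on TMM counts, and on TPM it was lower than in the hippocampus in the liver (log2 -2.84, adjusted p = 0.0867 in limma) and in the muscle (log2 -4.00, adjusted p = 0.0201 in limma). Both values rest partly on the added 0.1, as 1 wild-type liver and 2 wild-type muscles were at a rounded count of 0. Its mean TPM in wild-type hippocampus was 3.48 times that in the liver and 3.90 times that in the muscle.

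The transcript whose level followed that of a member most closely was sought over the 30 liver, muscle and hippocampus libraries, after the mean of each tissue was removed, among 15787 transcripts. It was ENSRNOT00000041177.5 for ENSRNOT00000025894.5 (r = 0.785), ENSRNOT00000017322.6 for ENSRNOT00000077285.1 (r = 0.768) and ENSRNOT00000044866.5 for ENSRNOT00000008104.5 (r = 0.704). These are the highest values among many transcripts in libraries that share animals, and they are given as descriptions. Among the members themselves, the correlations over these 30 libraries were -0.06, 0.18 and 0.18 for the 3 pairs that could be formed.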

How the data were processed

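Polyadenylated, strand-specific, single-end libraries were quantified by the authors with kallisto (0.46.0 in the submitters' processing notes, which name the build rn6) against Ensembl transcripts, with sequence bias correction. The deposited tables give per transcript the length and effective length in bases, the estimated count and the TPM, which the authors' software scales for length and depth. These abundances were used as deposited for 31715 transcripts in 40 libraries, and 0 columns belonged to other samples.

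Estimated counts were rounded. Transcripts with at least 5 counts in at least 47% of the libraries of a tissue were tested in edgeR 4.0.16 (R 4.3.3, TMM, quasi-likelihood F-test, genotype only, each tissue alone, Benjamini-Hochberg over all transcripts tested), with calls at an adjusted p under 0.1 and a fold of at least 1.5. The study took the same thresholds and design with another test. In each of the 4 tissues it reported more differential transcripts than edgeR called here, so few calls do not show an absence of change. 1 hippocampus library that the study left out was kept, and values without the most distant one are given. Interactions were fitted over the 30 liver, muscle and hippocampus libraries and tissue levels over the 20 wild-type libraries. Alternatives were DESeq2 1.42.0, limma 3.58.1, other size factors, filters, a replicate block and each library left out. Members, lists and rules were chosen with earlier results of these data known, and the named transcripts are the 5 listed for the fat, the nearest by p-value and the most alike. No libraries of a group were duplicates (chi-square per degree of freedom of 6.38 or more). The scripts were tested on simulated data. Intervals cover the spread between rats, and limits for a count of 0 cover counting error only.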

Additional observations from a re-analysis of the deposited data

Results flagged for a closer look

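Within groups of 5, the lowest or highest library was compared with the range of its group for the 5 transcripts, for the summed transcripts of other tissues and for library totals. Of 53 groups, 4 had an extreme library with a gap beyond the limit, where 1 in 20 groups, or 2.65, would be so by chance. ENSRNOT00000008104.5 in wild-type hippocampus had a gap of 0.815 of the range, from rat 2 at 7.54 TPM beside 8.99 to 9.32 TPM in the others. ENSRNOT00000073025.2 in heterozygous hippocampus had a gap of 0.742 of the range, from rat 1 at 3.58 TPM beside 3.95 to 4.08 TPM in the others. In heterozygous fat, the summed liver transcripts had a gap of 0.735 of the range, from rat 5 at 1584 TPM beside 280 to 626 TPM, and the summed muscle transcripts a gap of 0.967, from rat 4 at 1194 TPM beside 110 to 146 TPM. The 5 transcripts kept their directions in the fat without either of these rats, which the choice of the transcripts in these libraries favoured.

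The genotype difference of ENSRNOT00000025894.5 differed between tissues by a test of the difference itself, by -1.13 on the log2 scale between the liver and the muscle and by -0.85 between the liver and the hippocampus. Some rats gave several of these tissues, and with the rat as a block the adjusted p in edgeR was 0.0943 for the former and 0.359 for the latter, which then missed the threshold and was also lost in 22 of 30 fits that left out a library each.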

How the results depend on the processing

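The log2 fold changes of the 5 transcripts in the fat kept their direction and moved by less than their error under every alternative run, with ranges over 10 fits that left out a library each of -0.49 to -0.42 (ENSRNOT00000025894.5), 1.03 to 1.23 (ENSRNOT00000077285.1), -0.71 to -0.58 (ENSRNOT00000025517.5), -0.48 to -0.40 (ENSRNOT00000008104.5) and -0.78 to -0.59 (ENSRNOT00000073025.2). The same libraries chose the transcripts, so this stability was favoured in advance and nothing is read from it. The call in the liver was lost with limma (0 members called) and with the replicate number as a block (0 members called, log2 fold change -1.14, adjusted p = 0.171 in edgeR), and ranged from 0 to 1 without single libraries, with log2 fold changes of -1.27 to -1.06. Replicate numbers name different animals in the genotypes and libraries with the same number did not deviate together (r between -0.12 and 0.08), so the block tests no pairing of the design; all-transcript calls in the liver went from 38 to 11 under it, to between 11 and 57 without single libraries, to 119 with DESeq2, 16 with limma, 64 with at least 10 counts in every library and 77 with no fold limit, and in the fat from 0 to 20 with DESeq2. In the muscle DESeq2 gave 40 calls, the filter of at least 10 counts 5 and the block 0, and in the hippocampus 11 with DESeq2, 2 with limma and 0 with the block, beside 1 in the main analysis of either tissue. No member was called in the muscle or hippocampus under any alternative.

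The count of differences between tissues fell from 2 to 1 with the rat as a block, an alternative chosen after seeing the data like the fit on TPM, and ranged from 1 to 2 without single libraries. The count of tissue levels past the threshold, 10 of 15, ranged from 9 to 10 without single libraries, and was 9 with median-of-ratios size factors and 14 on TPM, and ENSRNOT00000073025.2 between muscle and hippocampus was lost without wild-type hippocampus rat 2 (0.51) or wild-type muscle rat 5 (0.35) and with median-of-ratios size factors (0.41). Signs turned only in values that had not passed the test or that changed scale: with the rat block, ENSRNOT00000077285.1 between liver and muscle (-0.078) and ENSRNOT00000008104.5 between muscle and hippocampus (-0.023) in the genotype difference, and ENSRNOT00000077285.1 in the liver against the muscle (0.072) in level; with median-of-ratios size factors, ENSRNOT00000008104.5 in the liver against the hippocampus (-0.095); and on TPM, ENSRNOT00000077285.1 in the liver against the muscle (1.16), ENSRNOT00000008104.5 in the liver against the hippocampus (-1.45) and ENSRNOT00000073025.2 in the muscle against the hippocampus (-1.06). Leaving out a library turned the sign of the log2 fold change in the muscle for ENSRNOT00000025894.5 (-0.045 to 0.039), ENSRNOT00000077285.1 (-0.26 to 0.52), ENSRNOT00000008104.5 (-0.089 to 0.021) and ENSRNOT00000073025.2 (-0.23 to 0.17), and in the hippocampus for ENSRNOT00000025517.5 (-0.58 to 0.040). In the differences between tissues it did so for ENSRNOT00000077285.1 between liver and muscle (-0.042 to 0.71) and ENSRNOT00000008104.5 between liver and muscle (-0.095 to 0.0062), liver and hippocampus (-0.059 to 0.032) and muscle and hippocampus (-0.023 to 0.081), and in the levels for ENSRNOT00000077285.1 between liver and muscle (-0.43 to 0.35) and muscle and hippocampus (-0.68 to 0.094) and ENSRNOT00000008104.5 between liver and hippocampus (-0.037 to 0.031). The cause was not tested. With 5 rats per genotype, the intervals for ENSRNOT00000077285.1 in the liver and muscle were wide.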
